A study of Homo sapiens with 6 samples.

Results

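In K562 cells, 10 genes of the actin cytoskeleton were followed from nascent transcription to steady-state RNA: ACTB, ACTG1, PFN1, CFL1, TMSB10, VCL, ACTN1, ACTN4, MYL6 and ARPC2. They were picked by symbol, with the counted transcript of each gene matched to GENCODE by its identifier, and all 10 of 10 were found, each with 1 counted transcript, among 37192 matched genes. K562 is an established line of human chronic myelogenous leukaemia cells, and the cells received no treatment. Total RNA-seq (4 libraries, ribosomal RNA removed) and PRO-seq (2 libraries) were made from cells of the same flask, so there is 1 cell line, 1 condition and 1 culture, and the replicate spread is that between libraries. PRO-seq, precision run-on sequencing, reads the RNA held by engaged polymerases and so reports on synthesis, whereas RNA-seq reports on the amount of RNA present.

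Actin is made as a globular monomer and assembles into filaments that carry cell shape, movement and tension. ACTB and ACTG1 encode the cytoplasmic beta and gamma actins. PFN1 (profilin) loads monomers for growth, TMSB10 (a beta thymosin) holds monomers aside, and CFL1 (cofilin) severs old filaments. ARPC2 is a subunit of the Arp2/3 complex, which starts branches, ACTN1 and ACTN4 (alpha-actinins) crosslink filaments, VCL (vinculin) ties them to adhesion sites, and MYL6 is the essential light chain of non-muscle myosin II. Monomeric actin also holds back MRTF cofactors of the transcription factor SRF, whose binding site, the CArG box, is found at many cytoskeletal genes. Under steady state, the ratio of RNA to synthesis is proportional to the half-life of the RNA, and the comparison below asks where each gene lies on that scale relative to the median mRNA. PRO-seq signal also depends on how fast the polymerase moves, a limit that the authors name for this ratio. Elongation rate was not measured here.

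Both cytoplasmic actins were counted as separate genes, and the start of their coding sequence shows bases by which reads of 1 can be told from those of the other. These are the first 60 coding bases of each, from the canonical transcripts (GRCh37, minus strand, chr7:5569229-5569288 for ACTB and chr17:79479321-79479380 for ACTG1), with the 10 bases that differ in capitals.
ACTB: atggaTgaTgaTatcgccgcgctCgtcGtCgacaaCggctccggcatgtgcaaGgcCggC
ACTG1: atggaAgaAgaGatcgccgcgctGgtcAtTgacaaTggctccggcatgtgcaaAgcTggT
Over the 1128 coding bases, 99 differed (91.2% identity), while the encoded proteins differed at 4 of 375 residues. RNA-seq reads were 75 bases long. Of the 75-base stretches of the counted transcripts, 4.9% for ACTB and 0.8% for ACTG1 also occurred in a transcript of another gene. The share was 13.5% for PFN1 (with PFN1P1 and ENO3), 14.3% for ACTN4 (with CAPN12 and ACTN4P1) and 16.3% for MYL6 (with SMARCC2 and MYL6B), and no such stretch was found for the other 5 genes.

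Promoter sequences of RefSeq (GRCh38.p14, from 250 bases before to 50 bases after each start) were matched for 9 of the 10 genes, with 14 windows in all. ACTB was not matched. A CArG box was searched on both strands, and 454 of 35116 promoters (1.29%) held one, among them windows of ACTG1 and ACTN1. Both are shown because SRF and its cofactors are measured below, with the box in capitals and 15 bases on each side. The first lies at chr17:81512869-81512908 and the second at chr14:68977713-68977752, both on the minus strand.
ACTG1: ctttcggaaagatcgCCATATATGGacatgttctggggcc
ACTN1: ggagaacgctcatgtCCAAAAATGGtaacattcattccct
The ACTG1 box runs from 94 to 85 bases before a RefSeq start and that of ACTN1 from 171 to 162 bases before 1 of its annotated starts. Windows were picked by gene symbol, and these starts were not matched to those of the counted units. The boxes may thus lie inside the counted units and not before them. No binding was measured.

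Counts were turned into TPM (transcript counts per length, scaled to the same total in every library), over exon length for RNA-seq and, for PRO-seq, over the span of the unit less 500 bp at each end (the PRO-seq window). Libraries held between 5732780 and 9002746 counts on transcription units for RNA-seq, and 6993816 or 7245632 for PRO-seq. All 12 measured K562 markers (among them GATA1, KLF1 and TFRC) were above 1 TPM in RNA-seq, between 13.2 and 6290 TPM. Of 12 measured markers of T cells, B cells, monocytes, epithelium and fibroblasts, 3 were above 1 TPM (CD3D at 109, LYZ at 334 and EPCAM at 120 TPM), while the others lay between 0.0115 and 0.324 TPM. These 3 genes were at 26.2, 13.0 and 11.6 TPM in PRO-seq, and their part in the results was not tested. Over the 8733 mRNAs tested below, log2 TPM of 2 RNA-seq libraries differed with an SD of between 0.20 (replicates 2 and 4) and 0.26 (replicates 3 and 4), and that of the 2 PRO-seq libraries with an SD of 0.21.

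The transcript that was counted decides what a value describes, and it was the Ensembl canonical transcript for 4 of the 10 genes (PFN1, TMSB10, ACTN4 and ARPC2), against 60.7% of 18964 mRNAs. CFL1 was counted on CFL1-207, a transcript with no defined coding sequence that spans 35136 bp (chr11:65590493-65625628, minus strand, GRCh37), whereas the canonical CFL1-201 spans 3508 bp. The counted exons covered 4.9% of the canonical exon bases, and 91.3% of the PRO-seq window lay outside the canonical transcript. Only 581 of 18901 mRNAs with a canonical transcript (3.07%) had under 10% of its exon bases counted, so the CFL1 values describe this unit and not the main cofilin mRNA.

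ACTG1 was counted on ACTG1-210 (chr17:79477716-79490873, minus strand), whose far first exon stretches the unit to 13158 bp against 2829 bp for the canonical transcript. Most of the ACTG1 window, 86.8%, lay before the canonical start, and 59.1% of the canonical exon bases were counted. ACTB was counted on ACTB-204 (chr7:5567429-5570258, minus strand, 2830 bp), with 64.1% of the canonical exon bases and no part of the window outside the canonical transcript. For MYL6 (MYL6-206, chr12:56552152-56556792, plus strand) these shares were 65.1% of exon bases counted and 25.5% of the window outside, and for VCL (VCL-206, chr10:75754951-75879918, plus strand) 91.4% and 2.0%. ACTN1 was counted on ACTN1-201 (chr14:69340860-69446157, minus strand), which covered 97.8% of the canonical exon bases.

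TMSB10 (chr2:85132780-85133795, plus strand) spans 1016 bp, so that 16 bp remained for PRO-seq and both libraries held 0 counts there. A count of 0 allows up to 3 counts, or 359 TPM, for counting error only. Synthesis of TMSB10 was therefore not measurable in these files, and 9 of the 10 genes could be compared between assays. Windows under 100 bp were left for 64 of 18964 mRNAs (0.337%).

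Overlaps with other units were checked for each window, since it is not stated whether reads were counted by strand. Units lying wholly inside another unit held PRO-seq counts in 59 of 2536 cases (2.3%) when the host was on the same strand and in 2680 of 4612 cases (58.1%) when it was on the opposite strand. Of the 10 genes, VCL had a same-strand overlap: 17.6% of its window was shared with the lncRNA ENSG00000225761, which had 0 PRO-seq counts. Records that fell in more than 1 unit were named ambiguous and left out (0.94% and 0.82% of PRO-seq records). The 0 therefore cannot show that the lncRNA was not transcribed, and VCL reads from the shared stretch may be missing too. On the opposite strand, 72.4% of the ACTG1 window was shared with the lncRNA ENSG00000229848 (20 and 21 PRO-seq counts) and 64.2% of the CFL1 window with SNX32 (3 and 4 counts). MYL6 shared 154 exon bases with SMARCC2, which had between 376 and 507 RNA-seq counts.

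Among the 10 genes, RNA levels per length ran from TMSB10, the monomer-holding thymosin, down to ACTN1. TMSB10 was at 2425, 2411, 2369 and 2315 TPM in RNA-seq replicates 1 to 4, above 99.7% of mRNAs. MYL6 followed with 1640, 1623, 1674 and 1808 TPM, and PFN1 with 1090, 1060, 1053 and 1067 TPM. These 3 small proteins were thus the most abundant transcripts of the set, and the library ranges of neighbours in the order did not overlap.

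ACTG1 was at 685, 663, 691 and 656 TPM in RNA-seq, and ACTB at 366, 378, 360 and 372 TPM. Gamma actin RNA was the higher in every RNA-seq library. ARPC2 was at 188, 195, 184 and 204 TPM.

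Below these 6 genes, ACTN4 (128, 113, 127 and 109 TPM) and VCL (104, 101, 110 and 99.0 TPM) overlapped in their ranges. The lowest, CFL1 (55.1, 46.1, 46.5 and 40.1 TPM) and ACTN1 (38.7, 37.8, 41.8 and 40.4 TPM), also overlapped. ACTN1 was still above 79.4% of mRNAs. RNA-seq CVs over the 4 libraries lay between 1.51% for PFN1 and 13.1% for CFL1, and exceeded the CV that counting alone would give in 8 of 10 genes, ACTB and PFN1 being the exceptions. For ACTN1 the excess was slight (4.52% against 4.49%). ACTN4 had the widest margin, with a CV of 8.24% against 2.27% from counting, and was lower in replicates 2 and 4 than in replicates 1 and 3. The same split of libraries was seen for ACTG1, VCL and CFL1 and the opposite one for ACTB and ARPC2.

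Nascent transcription ordered the genes differently. ACTB led with 1238 and 1472 TPM in PRO-seq replicates 1 and 2, above 99.9% of mRNAs and at rank 28. PFN1 was at 799 and 842 TPM and MYL6 at 267 and 292 TPM. None of these ranges overlapped, and on the counted windows ACTB alone of the 9 measurable genes was above 1000 TPM. This lead depends on the counted units. If every CFL1 count came from its canonical transcript, CFL1 would be at 1434 TPM in place of 125, against 1356 TPM for ACTB over both libraries.

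CFL1 was at 117 and 133 TPM in PRO-seq and ACTN4 at 121 and 126 TPM, so their ranges overlapped. VCL (98.1 and 94.7 TPM) and ACTG1 (87.2 and 101 TPM) also could not be ordered. ARPC2 was at 51.6 and 51.3 TPM, and ACTN1 was the lowest at 38.5 and 40.6 TPM. Across the 9 genes, PRO-seq TPM spanned 34.3-fold and RNA-seq TPM 42.6-fold.

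**Figure D1:**
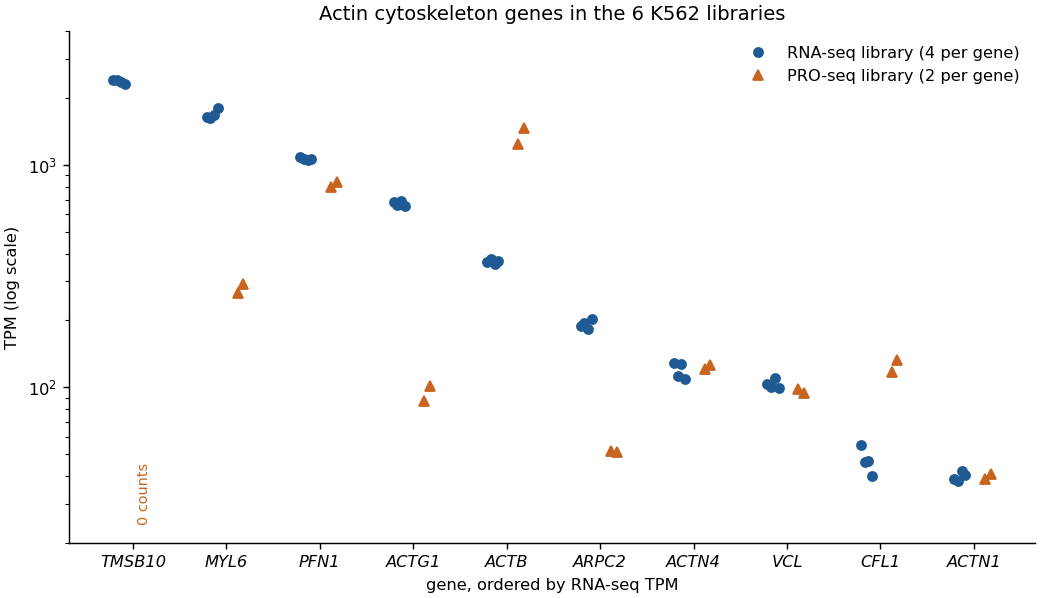
TPM (log scale) of each of the 10 genes in every library, with blue circles for the 4 RNA-seq libraries, orange triangles for the 2 PRO-seq libraries, and genes ordered by RNA-seq TPM. ACTB (1238 and 1472 against 360 to 378 TPM) and CFL1 (117 and 133 against 40.1 to 55.1 TPM) have PRO-seq above RNA-seq with no overlap. ACTG1, MYL6, ARPC2, PFN1 and VCL show the opposite, and TMSB10 had 0 PRO-seq counts. TPM of the 2 assays is not on a common scale: ACTN1, at 39.4 TPM in RNA-seq and 39.6 in PRO-seq, had a log2 difference of 0.63 from the median mRNA.

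The ratio of RNA-seq to PRO-seq was then set against that of the median mRNA and tested per unit with edgeR on the counts, for units whose PRO-seq level exceeded 10 TPM and whose RNA-seq level exceeded 1 TPM, with Benjamini-Hochberg adjustment over all 9929 units tested. Of the 9 measurable genes, 7 lay above the median mRNA and 2 below at an adjusted p under 0.05. The test was sensitive enough to call most mRNAs: 45.4% of the 8733 tested mRNAs were above and 44.9% below, so the size of each difference is given beside its call. The median log2 difference was 0.74 over the 9 genes, against 0.00 over mRNAs and -0.23 over all units. Tested mRNAs ranged from -2.76 at percentile 5 to 2.77 at percentile 95, and short units (spans under 5000 bp, 713 mRNAs) had a median of 0.02.

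ACTG1, over the whole of its long counted unit, had the highest relative half-life, at a log2 difference of 3.47 ± 0.06 (SE; 11.1-fold above the median mRNA; edgeR adjusted p = 1.5e-30), above 98.0% of tested mRNAs. With its PRO-seq window limited to the canonical transcript the value was 0.56, which ended that rank. MYL6 was next at 3.23 ± 0.06 (9.38-fold; edgeR adjusted p = 3.2e-29). ARPC2 was at 2.54 ± 0.06 (5.83-fold; edgeR adjusted p = 1.2e-26). Over the 8 pairings of 1 RNA-seq with 1 PRO-seq library, ACTG1 ran from 3.33 to 3.61 and MYL6 from 3.12 to 3.37, so these genes overlapped, while ARPC2, from 2.45 to 2.63, was apart from both.

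PFN1 was at 1.02 ± 0.05 (2.02-fold; edgeR adjusted p = 1.9e-17), and its pairings, from 0.96 to 1.08, overlapped with no neighbour. The crosslinkers and the adhesion link formed a close trio: VCL at 0.74 ± 0.04 (1.67-fold; edgeR adjusted p = 1.1e-16), ACTN1 at 0.63 ± 0.06 (1.55-fold; adjusted p = 1.1e-11) and ACTN4 at 0.59 ± 0.05 (1.5-fold; adjusted p = 4.3e-12). Their pairings overlapped, between 0.43 and 0.86, within the middle of the mRNA distribution (above 64.5% to 67.5% of mRNAs).

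ACTB and CFL1 were the genes below the median mRNA. ACTB was at -1.24 ± 0.06 (2.36-fold lower; edgeR adjusted p = 9.4e-19), above 21.7% of mRNAs, with all 8 pairings between -1.39 and -1.09. The CFL1-207 unit was at -0.77 ± 0.09 (1.70-fold lower; edgeR adjusted p = 1.2e-09), with pairings from -1.09 to -0.46 that overlapped those of ACTB. With no TPM thresholds CFL1 was at -0.14 and no longer called (edgeR adjusted p = 0.14). From ACTB to ACTG1 the 9 genes spanned 4.71 on the log2 scale, or 26.2-fold. Tested against a 2-fold difference, ACTB, ACTG1, MYL6 and ARPC2 were past the threshold in edgeR (adjusted p = 4.8e-05 for ACTB) and PFN1 was not (adjusted p = 0.30), nor were VCL, ACTN1, ACTN4 and CFL1. Without length in the ratio (counts scaled by the library total in both assays), ACTB turned to 1.47, and VCL, ACTN1 and ACTN4 to -0.016, -0.95 and -0.27.

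**Figure D2:**
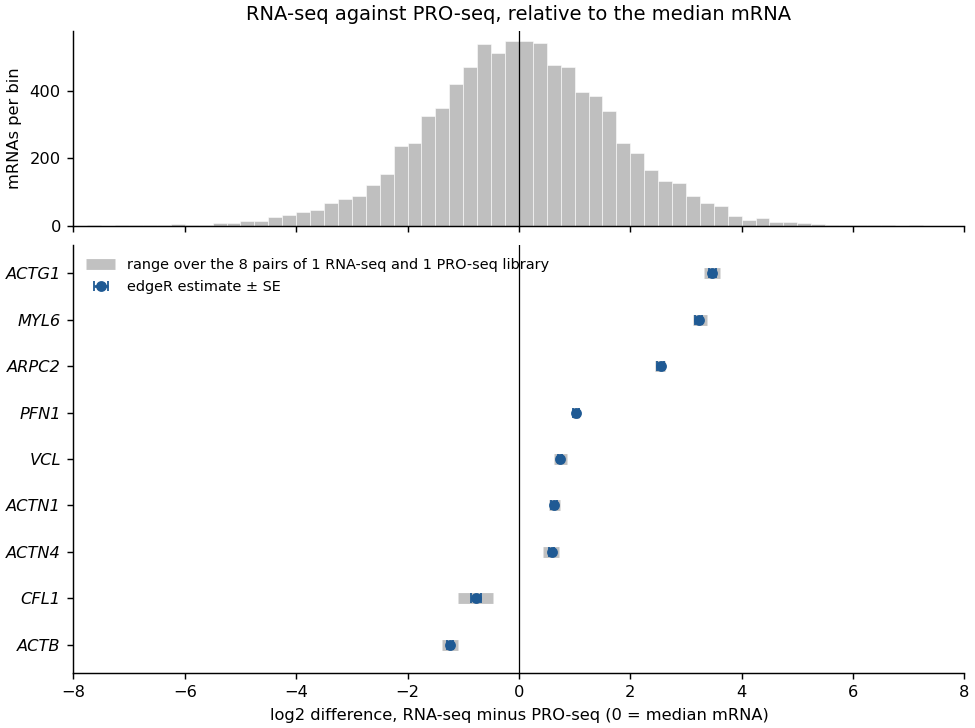
The upper panel is a histogram of the log2 difference between RNA-seq and PRO-seq for 8733 mRNAs, with 0 at the median mRNA. The lower panel gives the edgeR estimate ± SE (blue) and the range over 8 library pairings (grey bars) for the 9 measurable genes, from ACTB at -1.24 to ACTG1 at 3.47.

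How much the ACTG1 value rests on its long unit was examined by keeping the counts and shortening the PRO-seq window to the 1610 bp inside the canonical transcript, in place of 12158 bp. PRO-seq TPM was then 713 in place of 94.4 and the log2 relative half-life 0.56 in place of 3.47. This is the value if every PRO-seq count came from the canonical part, and where in the window the counts fell is not in the files. The same step took MYL6 from 3.23 to 2.80, VCL from 0.73 to 0.71 and CFL1 from -0.77 to -4.28. Leaving out the stretch that VCL shares on its own strand gave 0.46 for VCL. Only windows were changed in these steps, and exon lengths for RNA-seq were kept. With these windows ACTG1 left the top of the order for a place beside the alpha-actinins, and CFL1 went below ACTB.

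Within a library, the ratio of paralogues depends on neither depth nor the other genes. The log2 ratio of ACTB to ACTG1, per length, was -0.90, -0.81, -0.94 and -0.82 in RNA-seq and 3.83 and 3.86 in PRO-seq. ACTB was thus the less abundant RNA in every RNA-seq library (1.83-fold lower on average) and had the higher signal per length in both PRO-seq libraries (14.4-fold higher), with no overlap. The difference in means was -4.71 (-0.87 ± 0.06, SD, n = 4, against 3.84 ± 0.02, SD, n = 2), with a two-sided exact permutation p = 0.0667, the smallest that 15 splits allow, and an adjusted p = 0.133 over the 2 pairs. With the ACTG1 window shortened to the canonical transcript the difference was -1.80, in the same direction.

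For the alpha-actinins, the log2 ratio of ACTN1 to ACTN4 was -1.73, -1.58, -1.60 and -1.43 in RNA-seq and -1.65 and -1.63 in PRO-seq. The assays overlapped. ACTN4 was 3.0-fold above ACTN1 in RNA and 3.12-fold above it in nascent transcription, and the difference in means was 0.06 (exact permutation p = 0.60). Leaving out 1 library at a time moved it between 0.00 and 0.10. The proteins of the canonical transcripts, 914 and 911 residues, were 82.3% identical.

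**Figure D3:**
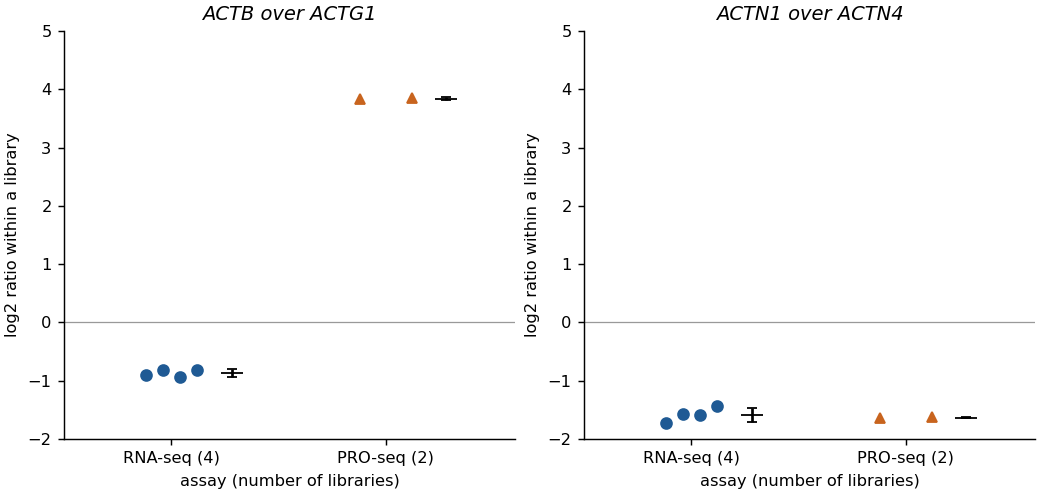
Log2 ratio of 2 paralogues within each library, per length, for RNA-seq (4 blue circles) and PRO-seq (2 orange triangles), with mean ± SD beside them. ACTB over ACTG1 changes sign between assays (-0.87 against 3.84), whereas ACTN1 over ACTN4 overlaps (-1.59 against -1.64).

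Units named as copies of a member held few RNA-seq counts. Reads aligned to more than 1 place were left out, so these counts cannot show how many reads a copy shares with its parent. The 9 named copies of ACTB held 101 RNA-seq counts in all, 1.55% of the ACTB count, led by ACTBP2 with 13, 19, 6 and 15. The 15 copies of ACTG1 held 50 RNA-seq counts (0.407% of ACTG1) but 241 PRO-seq counts, which is 40.2% of the ACTG1 count. Of these, 101 and 128 were on ACTG1P17, a unit of 12744 bp with between 1 and 4 counts per RNA-seq library. Copies of PFN1, ACTN4 and CFL1 (CFL1P1, annotated as a lncRNA) held 1, 31 and 0 RNA-seq counts.

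By closeness of log2(TPM + 1) over the 6 libraries, the mRNAs nearest to ACTB were PIM1 (distance 0.49), TXNIP (0.68) and MCL1 (0.73), which had 1100 to 1850 TPM in PRO-seq and 299 to 389 TPM in RNA-seq. Those nearest to PFN1 were RPL18 (0.42), TUBB (0.61) and RPL3 (0.68), of which RPL18 and RPL3 are ribosomal protein genes and TUBB a tubulin gene. VCL was closest to SSX2IP (0.11), PTBP3 (0.12) and RNPEP (0.15). ACTN1 was closest to FBXW11 (0.11), NCKAP1L (0.14) and GRAP2 (0.17). All 3 distances for ACTB exceeded those for VCL and ACTN1.

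The wider actin system was described with 11 lists holding 117 genes besides the 10. Of these, 82 passed the TPM thresholds, and 52 (63.4%) were above the median mRNA, 28 (34.1%) below and 2 not past the threshold in edgeR, beside 45.4% and 44.9% of all tested mRNAs. The median of the 82 was 0.73, beside 0.74 for the 9 genes. CAP2 and ACTN2 were not analysed here. Of the 82, 9 were counted on a transcript that covers under 50% of the canonical exon bases.

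Muscle actins (ACTA1, ACTA2, ACTC1 and ACTG2) were at 0 to 0.16 TPM in RNA-seq and 0.36 to 7.25 TPM in PRO-seq, and none passed the thresholds. Among monomer binding and turnover genes, 5 of 9 were above and 4 below the median mRNA (median 0.55). The thymosin TMSB4X, the gene most like TMSB10 in kind, was at 824 TPM in RNA-seq and 300 TPM in PRO-seq, a log2 difference of 2.09 ± 0.10. Its PRO-seq libraries differed, at 229 and 370 TPM, with 175 counts in a window of 1117 bp. The replicate SD of its log2 ratio was 0.49, beside a median of 0.13 over tested mRNAs. DSTN, a cofilin relative, was the highest at 2.21 ± 0.07 and WDR1, which helps cofilin to disassemble filaments, the lowest at -6.55 ± 0.14. WDR1 had between 1.39 and 2.85 TPM in RNA-seq against 298 and 311 TPM in PRO-seq, and its counted exons held 0% of the canonical exon bases. TMSB4X was named after its value was seen.

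In the Arp2/3 complex, 6 of 7 tested subunits besides ARPC2 lay above the median mRNA and 1 below, with a median of 2.01. ARPC1A and ARPC1B did not pass the PRO-seq threshold. ARPC1A was at 31.9 TPM in RNA-seq with 0 PRO-seq counts over a window of 39365 bp. ARPC1B was at 14.6 TPM in RNA-seq and 1.27 TPM in PRO-seq. The reason for the low PRO-seq values was not tested. ARPC4, a core subunit, was at 226, 227, 241 and 236 TPM in RNA-seq and 10.4 and 12.5 TPM in PRO-seq. Its log2 difference was 4.98 ± 0.10, above the 2.54 of ARPC2. This value rests on 78 PRO-seq counts and 11.5 TPM over both libraries, close to the threshold of 10 TPM. With the threshold at 20 TPM, ARPC4 was not tested. ACTR3B, a second form of ACTR3, was the 1 below, at -0.86 ± 0.09. Of the nucleation promoting factors, which switch the complex on, 6 of 15 were above and 8 below (median -0.64), from BRK1 of the WAVE complex at 3.04 ± 0.07 to WASL (N-WASP) at -2.37 ± 0.06. WASL was at 14.1 to 14.8 TPM in RNA-seq and 113 and 120 TPM in PRO-seq.

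Formins and spire proteins, which start unbranched filaments, had 7 of 8 genes below the median mRNA and 1 above, with a median of -1.09. INF2 was the lowest at -2.74 ± 0.11, and DIAPH3 the highest at 0.27 ± 0.05. Capping and severing genes showed the reverse, with 8 of 9 above and TMOD1, a pointed-end cap of red cells, below at -1.22 ± 0.07. The highest was the capping protein subunit CAPZA2 at 5.04 ± 0.08, with 478 to 551 TPM in RNA-seq against 24.2 and 22.6 TPM in PRO-seq, but only 2.6% of its canonical exon bases were counted.

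Crosslinkers besides the alpha-actinins were above the median mRNA in 8 of 9 cases (median 1.67), from TAGLN2 at 3.18 ± 0.06 down to TAGLN at -3.07 ± 0.31, which was counted on 28.5% of its canonical exon bases. Adhesion and membrane links were above in 10 of 13 and below in 2 (median 1.13). The lowest was ZYX (zyxin) at -2.39 ± 0.11 and the highest MSN (moesin) at 2.95 ± 0.06, with 8.4% of its canonical exon bases counted. VCL, at 0.74, was below the median of this list.

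All 5 tested genes of non-muscle myosin II besides MYL6 were above the median mRNA, with a median of 1.53. The regulatory light chain MYL12B was at 766 to 786 TPM in RNA-seq and 74.7 and 85.8 TPM in PRO-seq, a log2 difference of 3.91 ± 0.05. The heavy chain MYH9 was the lowest of them at 0.76 ± 0.06. Of the tropomyosins, which coat filaments, 3 of 4 were above, with TPM3 at 2.63 ± 0.05 (10.5% of canonical exon bases counted) and TPM2 at -1.36 ± 0.25.

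The 3 genes of actin-controlled transcription all lay below the median mRNA. SRF was at 39.4, 41.9, 40.2 and 40.5 TPM in RNA-seq and 86.2 and 94 TPM in PRO-seq, a log2 difference of -0.52 ± 0.08. Its cofactors MRTFA and MRTFB were at -1.97 ± 0.09 and -2.29 ± 0.08. With no TPM thresholds, which moves the median mRNA by 0.63 on the log2 scale, SRF was at 0.11 and no longer called (edgeR adjusted p = 0.24).

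**Figure D4:**
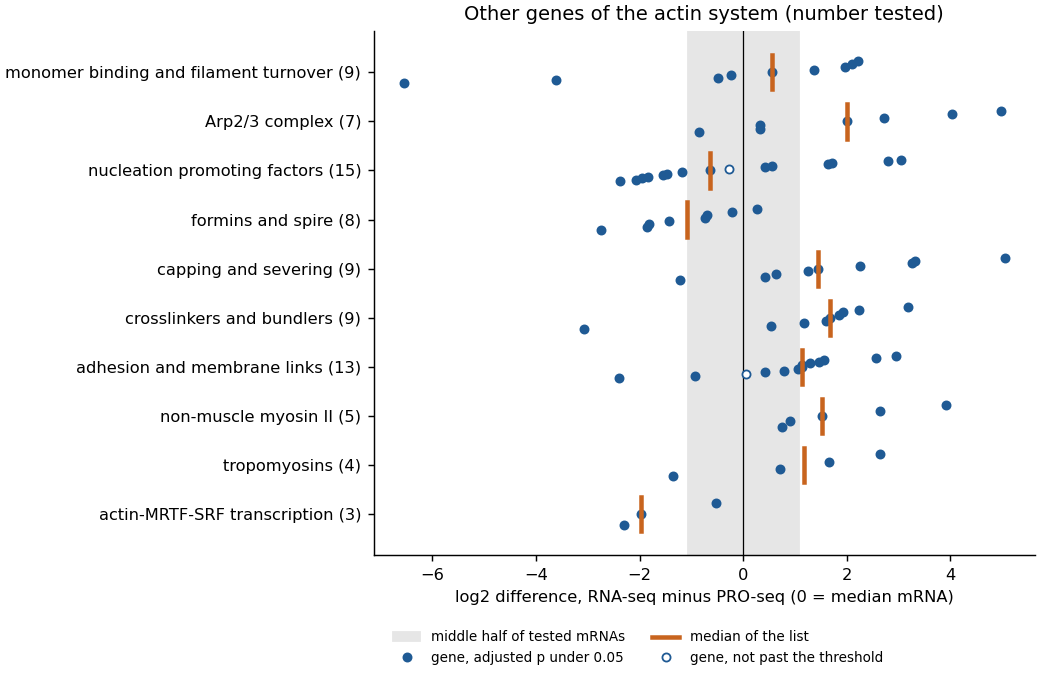
Log2 difference between RNA-seq and PRO-seq (x axis, 0 at the median mRNA) for the 82 tested genes of the wider lists, with the number tested beside each list. Filled points passed an adjusted p of 0.05 in edgeR, open points did not, orange lines are list medians and the grey band runs from percentile 25 to 75 of tested mRNAs (-1.06 to 1.08). List medians run from -1.97 for SRF with its cofactors and -1.09 for formins and spire to 2.01 for the Arp2/3 complex, and single genes go against their list, such as DIAPH3 at 0.27, TMOD1 at -1.22 and TAGLN at -3.07; the lists were not tested against each other.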

How the data were processed

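Nascent and steady-state RNA of K562 cells were measured with PRO-seq (n = 2) and total RNA-seq (n = 4). The authors deposited raw read counts per transcript, made with Cutadapt, HISAT2 (GRCh38) and HTSeq, per the labels and methods. Tool versions and strandedness: not given in the sources used here. Rows that name no unit held 66.5% to 68.6% of RNA-seq and 86.5% to 88.6% of PRO-seq records and were left out.

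Identifiers were joined to GENCODE version 44 lifted to GRCh37, and 37339 of 42371 (88.1%) matched. Span and exon lengths of the 10 genes were the same on GRCh38. TPM was taken over 37255 units with a PRO-seq window. RNA-seq was tested against PRO-seq with edgeR (version 4.0.16, R version 4.3.3): quasi-likelihood test, TMM normalization, length offsets, coefficient centred on the median mRNA, Benjamini-Hochberg adjustment. As an alternative, DESeq2 (version 1.42.0) was run. On simulated data with 9929 units, 96% of 50 units changed 2-fold upwards were recovered and 0.0719% of unchanged ones called. The simulation gave all units the same dispersion (0.000968) and left most units unchanged. In the real data most tested mRNAs were called, so these rates check the fit but do not describe the real comparison. Paralogue ratios were tested by exact permutation over libraries.

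The members and lists were chosen with earlier results of these data known. Named were the 10 genes, the highest and lowest called gene of each list, SRF, MRTFA and MRTFB, the 3 mRNAs nearest to each of 4 members, and pseudogene copies. A further list of genes is not reported here. Depth limits precision as given by SEs and counting CVs, which cover counting and library error only, since all libraries came from 1 flask, so p-values measure the spread between libraries.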

Additional observations from a re-analysis of the deposited data

Results flagged for a closer look

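Dixon's rule for the sample farthest from the rest was applied to the 4 RNA-seq values of 33 genes and ratios named in the text, and 2 were past the critical value for 4 samples; chance gives about 1 in 20. CAPZA2, a capping protein subunit, was at 551 TPM in replicate 3 against 478 to 489 TPM in the other libraries. TAGLN2, a filament crosslinker, was at 767 TPM in replicate 2 against 804 to 811 TPM in the others. None of the 10 genes was among them.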

How the results depend on the processing

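Of the 9 measurable genes, all kept direction and call under library totals, DESeq2, at least 10 summed counts, 20 and 2 TPM, 500 bp removed in place of 1000 bp, summed RNA-seq pairs and each library left out. Testing against a 2-fold difference left 2138 units above and 2901 below, and PFN1 (1.02, adjusted p = 0.30), CFL1 (-0.77), VCL (0.74), ACTN1 (0.63) and ACTN4 (0.59) lost their call (edgeR). With at least 1 summed count and no TPM thresholds, 6544 units were above and 7724 below, CFL1 was at -0.14 (edgeR adjusted p = 0.14), SRF at 0.11 and the median of the 9 genes at 1.36, since more units enter and the centre moves by 0.63. Centring on all units gave a median of 0.96, and no length gave 1.07 with ACTB at 1.47, VCL at -0.016, ACTN1 at -0.95 and ACTN4 at -0.27, by construction. In all, 623 alternative values kept their call or stayed within the replicate SD, 36 moved, 10 lost their call and 5 changed sign. Windows limited to the canonical transcript were chosen after seeing the data.

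Replicates 1 and 2 carry the same numbers in both assays, but same-numbered libraries did not deviate together (correlation -0.01 over 9841 units). With the replicate block, 3913 units were above and 4865 below, and no call of the 9 genes changed. Leaving out 1 library gave 3865 to 3999 units above and 4794 to 4951 below. Among the 9 measurable genes the lowest PRO-seq depth was 531 counts (MYL6) and the lowest RNA-seq depth 494 (CFL1), and TMSB10 had 0 PRO-seq counts.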
